A study of Rattus norvegicus with 6 samples.

Results

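DNA repair genes were followed through the renal cortex of rats given tris(2-chloroethyl)phosphate (TCEP), a chlorinated organophosphate used as a flame retardant. The members were 51 genes chosen by name from textbook repair pathways: direct reversal, base excision, nucleotide excision and mismatch repair, recombination and crosslink repair, end joining, checkpoint signalling and translesion synthesis. Of these, 39 had a named probe among the 15284 genes named on the arrays, and 37 were bright enough to enter the 11804 genes tested. All 37 were well above background, the scanner software's detection call, on all 6 arrays. Ddb1, Ddb2, Ercc4, Ercc5, Lig3, Msh6, Rad52, Fanca, Fanci, Fancg, Prkdc and Atr had no named probe and are not analysed here. Brca1, a recombination protein and tumour suppressor, was well above background on 0 of 6 arrays, with signals from 3.53 to 6.69 intensity units. Neil2, a DNA glycosylase, was well above background on 1 vehicle and 1 TCEP array. Neither was tested.

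Cells remove damage from DNA by pathways that differ in the lesion they recognise. Direct reversal enzymes take an alkyl group off a base without cutting the strand, base excision repair removes small altered bases, nucleotide excision repair cuts out bulky lesions, and recombination and end joining rejoin broken chromosomes. Checkpoint kinases sense breaks and stalled replication forks and hold the cell cycle. Much of the recombination, crosslink and checkpoint machinery is transcribed mainly in dividing cells, while the proximal tubule epithelium that fills most of the cortex divides rarely. A transcript level says nothing of how much damage was present or repaired.

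Each array carried renal cortex RNA from 1 of 6 male rats of the Sprague-Dawley strain, which were 5 weeks old when purchased, 3 in each group. Vehicle rats received corn oil and TCEP rats 400 mg/kg/day of the compound, both for 4 weeks. The series text calls the rats of a group biological replicates. On each array 67.2% to 69.3% of the probes passed that detection call. The tissue label was borne out by its markers, since 21 of 22 genes marking tubule segments and podocytes had a named probe and all 21 were well above background on every array. The vehicle arrays shared slide 1 and the TCEP arrays slide 2, each with its own scan, so batch and group cannot be told apart in any result here. A level is the log2 signal of a gene minus that of the array's 75th percentile, so a level of 0 is as bright as that percentile. Differences are TCEP minus vehicle of these log2 levels, and ± gives the SD of a group (n = 3 arrays). In whole cortex, a change in the number of cells that carry a transcript and a change in the transcript per cell cannot be told apart.

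Repair transcripts as a whole lay close to their vehicle level after TCEP. Of the 37 tested members 23 were higher and 14 lower, with a median difference of 0.02 against 0.01 over all tested genes, of which 52.5% were higher. The split was 29 higher and 8 lower without scaling between arrays, where 63.9% of all genes were higher, 19 and 18 with array weights, 20 and 17 without vehicle replicate 2, 27 and 10 without TCEP replicate 2, and 17 and 20 without TCEP replicate 3. In limma 0 members passed a Benjamini-Hochberg adjusted p of 0.05, as did 0 of 11804 genes (0.0%), and the smallest adjusted p of a member was 0.535. At an unadjusted p under 0.05 there were 7 members (18.9%), against 8.33% of all tested genes. Of these, 6 were higher (Mgmt, Fancd2, Chek1, H2ax, Alkbh3 and Rad23b), where the share over all genes was 4.21%, and 1 was lower (Polb), against 4.12%. The count was 3 (8.11%) without vehicle replicate 1, TCEP replicate 1 or TCEP replicate 2, where 5.88%, 7.32% and 6.01% of all genes passed. It was 4 (10.8%) without vehicle replicate 3 or TCEP replicate 3, where 6.92% and 8.47% did. Without vehicle replicate 2 it was 6 (16.2%), where 8.51% did. With 1 array left out, the members' share thus ranged from little above that of all genes (without TCEP replicate 1) to well above it (without vehicle replicate 2). In 9 members (24.3%) the 3 arrays of one group all lay above those of the other, as they did in 15.6% of all tested genes. The TCEP arrays were the higher in 7 of these, against 8.63% of all genes, and the lower in 2, against 6.97%. This count of 9 was 14 (37.8%) without TCEP replicate 1 or TCEP replicate 2, where the share of all genes was 27.2% and 23.1%.

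The spread between rats was small enough to bound most members closely. The median SD of a member within groups was 0.10, against 0.13 over all genes. For 35 members (94.6%) the 95% interval of the difference lay within 1.5-fold either way, against 76.5% of all tested genes. The exceptions were Mgmt and Fancd2. The number of members above their own mean over the 6 arrays was 20, 13 and 16 on vehicle arrays 1 to 3 and 25, 15 and 25 on TCEP arrays 1 to 3. TCEP array 2 thus lay among the vehicle arrays by this count.

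**Figure D1:**
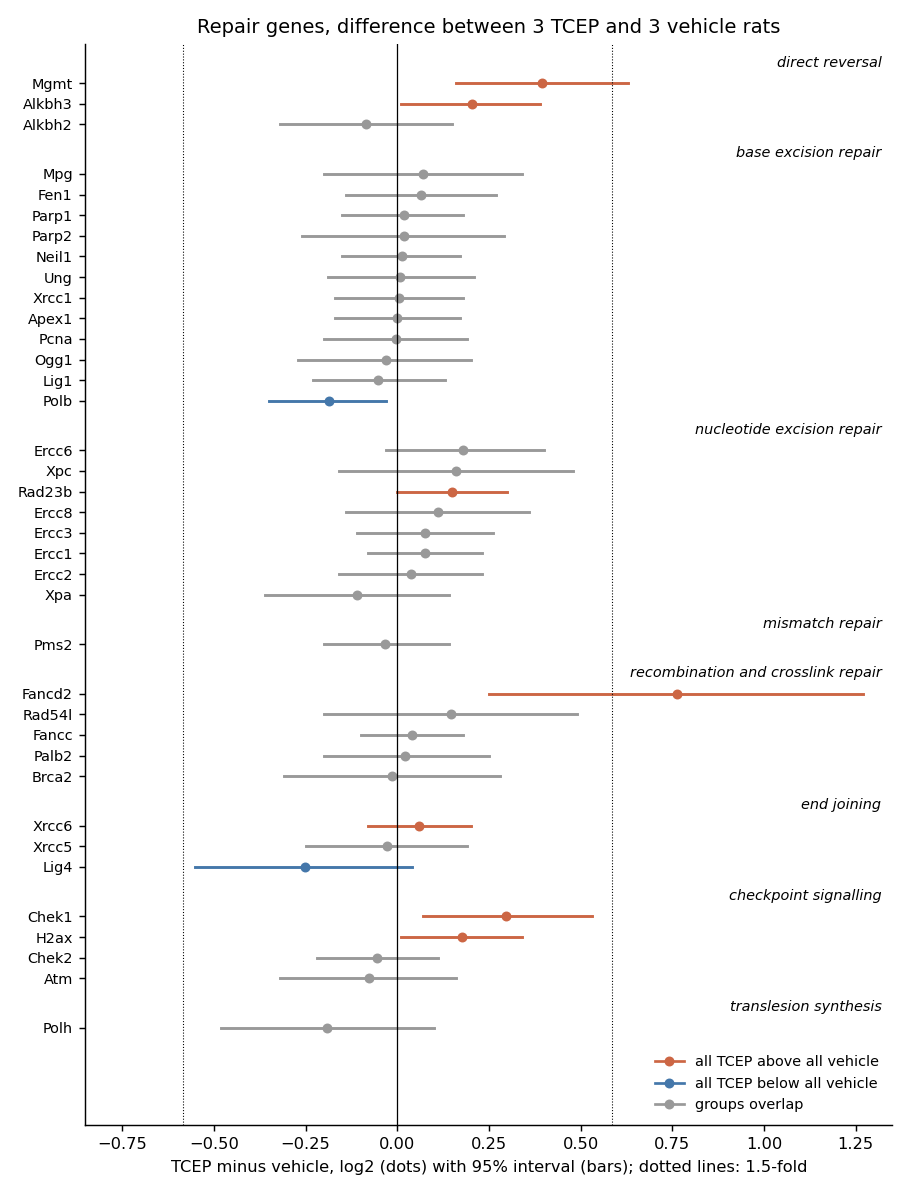
Difference between 3 TCEP and 3 vehicle rats (dots, TCEP minus vehicle, log2) with its 95% interval from limma (bars) for the 37 tested repair genes by pathway; colour shows whether the arrays of the groups overlapped, and dotted lines mark 1.5-fold either way. Intervals of 35 genes lie between the dotted lines, and those of Mgmt and Fancd2 pass the upper one.

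Among the direct reversal genes the smallest p was that of Mgmt, the methyltransferase that takes alkyl groups off guanine onto its own cysteine and is used up in doing so. Its level was 2.07, 1.95 and 2.07 on vehicle arrays 1 to 3 and 2.25, 2.53 and 2.48 on TCEP arrays 1 to 3. All TCEP arrays were above all vehicle arrays, by less on TCEP array 1 than on the other two. In limma the difference was 0.39 (SE 0.09, 95% interval 0.16 to 0.63), a 1.31-fold higher level (unadjusted p = 0.00581, adjusted p = 0.535), rank 123 by p among the tested genes. It kept an unadjusted p under 0.05 in 16 of 16 settings, from 0.34 without TCEP replicate 2 to 0.50 with another background correction. Several settings could hardly alter Mgmt, which has 1 probe, detected on all arrays. Its difference was 0.39 with the mean over probes, either other filter on dim probes and the series matrix values.

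Alkbh2 and Alkbh3 are dioxygenases that oxidise methyl groups off alkylated bases. For Alkbh3 the levels were 1.07, 1.00 and 0.95 in vehicle and 1.25, 1.29 and 1.10 in TCEP rats, with the lowest TCEP array just above the highest vehicle array. Its difference was 0.20 (SE 0.08, unadjusted p = 0.0386, limma adjusted p = 0.582), and 0.35 with normexp, a background correction fitted to spot and local background. Alkbh2 lay at 2.88, 2.77 and 3.01 in vehicle and 2.80, 2.70 and 2.91 in TCEP rats. The Alkbh2 groups overlapped, and its difference was -0.09 (95% interval -0.32 to 0.15). It was -0.23 with normexp, -0.02 without vehicle replicate 3 and -0.03 without TCEP replicate 2.

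Promoter stretches are printed for 4 of the members with an unadjusted p under 0.05, to show the motifs found in them. They come from RefSeq's GRCr8 assembly of the rat genome and run 5′ to 3′ on the gene's own strand. Capitals mark the motif. In Mgmt they are 2 GC boxes in the 70 bases before the start, in Fancd2 a cyclic AMP response element within the last 30 bases, in Chek1 an E2F motif between 40 and 11 bases before it, and in H2ax CCAAT boxes on either strand between 165 and 56 bases before it. The annotated gene records of Fancd2 and Chek1 begin 75 and 24 bases upstream of the start used here, so these windows overlap transcribed sequence.
Mgmt, chr1:201140762-201140831, plus strand: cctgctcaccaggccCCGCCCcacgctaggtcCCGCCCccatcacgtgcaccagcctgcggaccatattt
Fancd2, chr4:148234678-148234707, plus strand: acggcgtggccttgaTGACGTCAgaacggc
Chek1, chr8:44629854-44629883, minus strand: aagcaggttttgGCGGGAAAagctgtgcac
H2ax, chr8:53568553-53568662, plus strand: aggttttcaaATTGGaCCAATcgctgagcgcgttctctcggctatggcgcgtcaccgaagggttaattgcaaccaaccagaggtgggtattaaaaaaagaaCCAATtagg

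Motifs were searched on both strands in the 250 bases before the start of 45 members with a promoter entry and of all 33469 promoters. A member counted once if any of its promoter entries matched, whereas the share over all promoters counts every entry by itself. The shares are thus in unlike units, and a member with several entries had more openings to match. The E2F letters TTTCCCGC, TTTGGCGC or TTTCGCGC were found in 3 members (Atm, Chek1 and Fancc; 6.67%) and in 1.41% of all promoters. The cyclic AMP response element TGACGTCA was found in 1 member, Fancd2 (2.22%), and in 1.59% of all promoters. The GC box GGGCGG was found in 29 members (64.4%) against 30.5% of all promoters, and CCAAT in 19 (42.2%) against 34.0%. The cell cycle homology element TTTGAA was found in 6 members (13.3%) against 16.2%, and the antioxidant response element TGACNNNGC in 5 (11.1%) against 10.1%. In H2ax the TTTGAA match overlaps the ATTGG by 1 base. These matches describe the letters in the windows and were not tested as binding sites.

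In base excision repair 12 of 14 members were tested, and 7 were higher and 5 lower with a median difference of 0.01 (-0.01 with quantile normalization and -0.06 with normexp). All 12 intervals lay between -0.35 and 0.34. Polb, the polymerase that fills the gap left by a removed base, was at -0.95, -0.98 and -0.88 in vehicle and -1.11, -1.08 and -1.19 in TCEP rats. Every TCEP array was below every vehicle array. Its limma difference was -0.19 (SE 0.07, 95% interval -0.35 to -0.03, unadjusted p = 0.0288, adjusted p = 0.559), and the unadjusted p stayed under 0.05 in 10 of 16 settings.

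The rest of the pathway lay near its vehicle level. Among the glycosylases, which cut out the altered base, Ogg1 (oxidised guanine) lay at 0.68 ± 0.06 in vehicle and 0.65 ± 0.16 in TCEP rats, a difference of -0.03 (95% interval -0.27 to 0.20). Mpg, which removes alkylated purines, differed by 0.07, Ung, which removes uracil, by 0.01, and Neil1 by 0.01. Apex1, the endonuclease that opens the strand at the empty site, differed by 0.00 (95% interval -0.17 to 0.17). Parp1, the main sensor of strand breaks, was at 3.25 ± 0.03 and 3.27 ± 0.08, a difference of 0.02 (95% interval -0.15 to 0.18). Parp2 differed by 0.02 and the scaffold gene Xrcc1 by 0.01.

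Among the genes that replication shares with base excision repair, Pcna, the sliding clamp, was at 1.79, 1.69 and 1.61 in vehicle and 1.78, 1.68 and 1.62 in TCEP rats. The Pcna values of the groups were nearly the same, with a difference of 0.00 (95% interval -0.20 to 0.19). Fen1, the flap endonuclease, differed by 0.06 (95% interval -0.14 to 0.27), or 0.16 as the mean over its probes, 0.02 without vehicle replicate 2 and 0.01 without TCEP replicate 3. Lig1, the replicative ligase, differed by -0.05 (95% interval -0.23 to 0.13). Small differences turned sign in some settings for Ogg1, Parp1 and Pcna.

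Nucleotide excision repair had 8 of 12 members tested, of which 7 were higher and 1, Xpa, lower, with a median of 0.09 that ranged from 0.07 to 0.14 over the settings. Rad23b, which stabilises the damage sensor Xpc, was the member with an unadjusted p under 0.05. Its levels were 3.06, 3.04 and 2.98 in vehicle and 3.16, 3.22 and 3.15 in TCEP rats, without overlap. The limma difference was 0.15 (SE 0.06, 95% interval 0.00 to 0.30, unadjusted p = 0.0477, adjusted p = 0.598), and the unadjusted p was under 0.05 in 5 of 16 settings.

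Xpc itself was at 0.25, 0.54 and 0.31 in vehicle and 0.76, 0.38 and 0.45 in TCEP rats. The groups overlapped, and the Xpc difference of 0.16 (95% interval -0.16 to 0.48) became 0.04 without TCEP replicate 1. Ercc6, which couples repair to stalled transcription, was at -0.39, -0.52 and -0.25 in vehicle and -0.18, -0.26 and -0.17 in TCEP rats. The highest vehicle array of Ercc6 reached past the lowest TCEP array, and the difference was 0.18 (SE 0.09, limma unadjusted p = 0.0861, adjusted p = 0.647), or 0.11 as the mean over its probes or without vehicle replicate 2. Ercc8, its partner in that pathway, differed by 0.11, the helicases Ercc2 and Ercc3 of the transcription factor complex that opens the helix by 0.04 and 0.08, and the nuclease subunit Ercc1 by 0.08. The dimmer Ercc3 probe, also well above background on all arrays, differed by 0.21. The dimmer Ercc1 probe differed by 0.12, and the dimmer Ercc8 probes by 0.19 and -0.12. Xpa, which holds the opened lesion, differed by -0.11 (95% interval -0.36 to 0.14). In mismatch repair the tested member was Pms2, an endonuclease subunit, at -0.44 ± 0.06 and -0.48 ± 0.07, a difference of -0.03 (95% interval -0.20 to 0.14) that turned sign in some settings.

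Of the recombination and crosslink repair genes 5 of 10 were tested, 4 higher and 1 lower, with a median of 0.04. Fancd2, the Fanconi anaemia protein that is ubiquitinated at a crosslink and recruits the nucleases, had the largest difference of any tested member. It was at -4.62, -4.56 and -5.21 in vehicle and -4.15, -3.78 and -4.18 in TCEP rats. All TCEP arrays were above all vehicle arrays, and vehicle array 3 was the lowest by far. The limma difference was 0.76 (SE 0.21, 95% interval 0.25 to 1.27, unadjusted p = 0.0105, adjusted p = 0.535), a 1.70-fold higher level. Fancd2 is dim: its processed signal was 39.2, 41.1 and 26.7 intensity units on vehicle arrays and 60.6, 70.7 and 53.4 on TCEP arrays. The difference was 0.24 with normexp and 0.56 without vehicle replicate 3, with an unadjusted p under 0.05 in 16 of 16 settings. The normexp setting adds an offset of 50 units to each signal, which by calculation shrinks log2 differences of genes this dim. How much of the drop to 0.24 came from the offset was not tested.

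The other tested genes of this group had smaller differences, with intervals on either side of 0. Rad54l, a motor protein of strand exchange, differed by 0.15 (95% interval -0.20 to 0.49; 0.05 without vehicle replicate 3 and 0.03 without TCEP replicate 1). Fancc, of the Fanconi core complex, differed by 0.04 (95% interval -0.10 to 0.18). Palb2 and Brca2, partners in recombination at breaks, differed by 0.02 and -0.01.

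In end joining 3 of 4 members were tested. Lig4, the ligase that seals the joined ends, was at -1.28, -1.28 and -1.30 in vehicle and -1.35, -1.79 and -1.47 in TCEP rats. The vehicle arrays were nearly identical and the TCEP arrays, all lower, spread widely. The Lig4 difference was -0.25 (SE 0.12, 95% interval -0.55 to 0.04, limma unadjusted p = 0.0823, adjusted p = 0.647), and it was -0.12 without TCEP replicate 2 and -0.14 with normexp. Xrcc6, the smaller of the Ku proteins that bind a broken end, was at 2.34, 2.31 and 2.31 in vehicle and 2.39, 2.39 and 2.36 in TCEP rats. The Xrcc6 groups did not overlap, but the difference was only 0.06 (95% interval -0.08 to 0.20). Its partner Xrcc5 differed by -0.03 (95% interval -0.25 to 0.19), with a sign that turned in some settings. Polh, the translesion polymerase that copies past distorting lesions, was at -1.85, -2.17 and -1.92 in vehicle and -2.00, -2.26 and -2.25 in TCEP rats. The Polh groups overlapped, with a difference of -0.19 (95% interval -0.48 to 0.10) that was -0.29 without vehicle replicate 2.

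**Figure D2:**
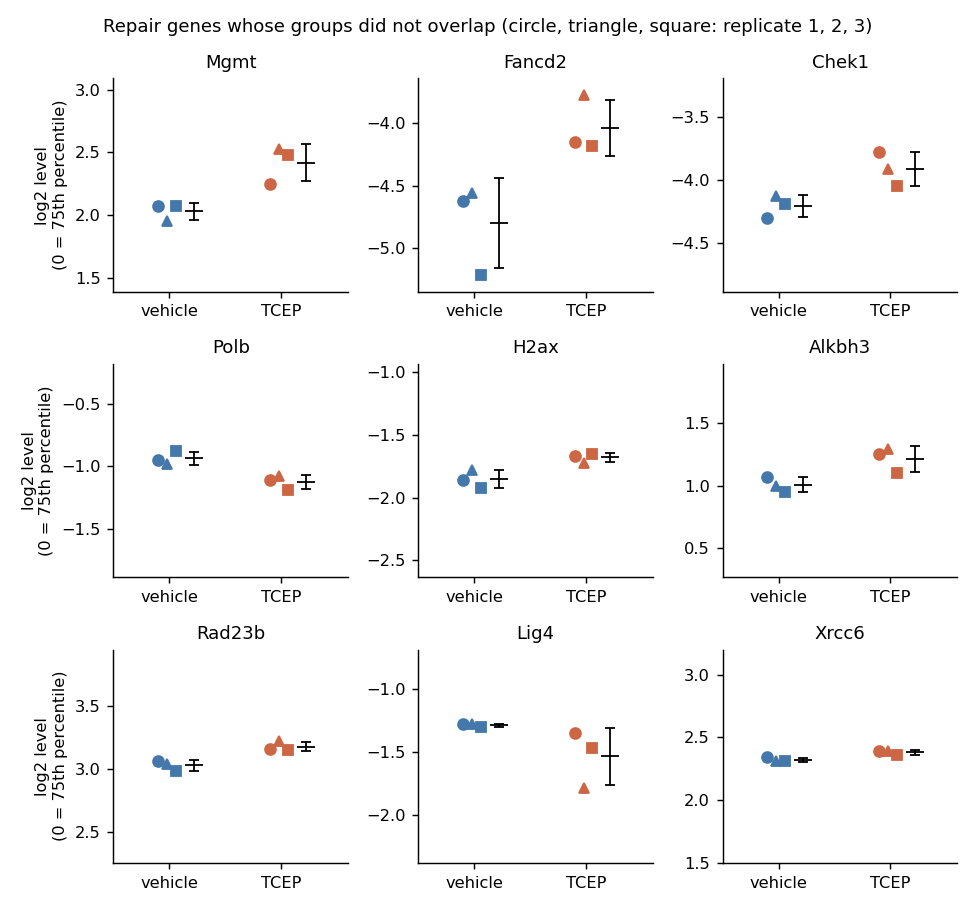
Level of each of the 9 repair genes whose groups did not overlap, as log2 signal relative to the array's 75th percentile, by array (circle, triangle and square for replicates 1, 2 and 3), with the mean and SD of each group as bars. The vertical axes span the same number of log2 units, so the wider gaps of Fancd2 and Mgmt and the narrow one of Xrcc6 can be compared by eye.

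The checkpoint genes split into 2 that were higher and 2 that were not. Chek1, the kinase that answers stalled replication forks, was at -4.30, -4.13 and -4.19 in vehicle and -3.78, -3.91 and -4.05 in TCEP rats, without overlap. Its limma difference was 0.30 (SE 0.09, 95% interval 0.07 to 0.53, unadjusted p = 0.0191, adjusted p = 0.549). Chek1 is also dim, with 48.9 to 55.3 intensity units in vehicle and 58.3 to 78.3 in TCEP rats. Its difference was 0.09 with normexp, which adds the same offset of 50 units. How much of the drop of Chek1 came from the offset was not tested. The unadjusted p was under 0.05 in 12 of 16 settings.

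H2ax, the histone variant that is phosphorylated around a break, was at -1.86, -1.78 and -1.92 in vehicle and -1.67, -1.72 and -1.65 in TCEP rats. The groups did not overlap, and the H2ax difference was 0.18 (SE 0.07, 95% interval 0.01 to 0.34, limma unadjusted p = 0.0373, adjusted p = 0.577), with an unadjusted p under 0.05 in 10 of 16 settings. Atm, the kinase activated by double-strand breaks, was at -3.54, -3.39 and -3.40 in vehicle and -3.68, -3.38 and -3.51 in TCEP rats. The Atm groups overlapped, with a difference of -0.08 (95% interval -0.32 to 0.16) that was -0.20 as the mean over its probes and turned sign with array weights. Chek2, the kinase that Atm activates, differed by -0.05 (95% interval -0.22 to 0.11). Whether Chek1 and H2ax differed from Atm and Chek2 in their response was not tested.

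Markers of dividing cells were also higher in TCEP rats, as Fancd2, Chek1 and H2ax were. Of 18 such markers 16 had a named probe and 15 were tested. All 15 had higher means there, and their median was 0.58 (with array weights it was 0.33, with normexp 0.36). In limma 9 (60.0%) were higher at an unadjusted p under 0.05, against 4.21% of all tested genes. At an adjusted p under 0.05 there were 0. Top2a and Mki67 had no named probe, and Aurkb was well above background on 1 vehicle and 2 TCEP arrays. The summed linear signal of the list, in units of the 75th percentile, was 9.09 to 12.4 in vehicle and 12.6 to 13.9 in TCEP rats. Kif11, the brightest marker, weighs most in this sum, and its groups overlapped with a difference of 0.12. Averaged over the 15 markers, the deviation from the mean of the 6 arrays was 0.12, -0.37 and -0.53 on vehicle arrays and 0.43, 0.14 and 0.22 on TCEP arrays. Vehicle array 3, the lowest for Fancd2, was also the lowest for these markers, while TCEP array 2, the highest for Fancd2, was the lowest TCEP array for them. The part of dividing cells in the differences of Fancd2, Chek1 and H2ax was not tested. Pcna and Fen1, which replicating cells also use, lay at differences of 0.00 and 0.06 on the same arrays. Both are bright, at 2970 to 3710 and 3180 to 3810 intensity units, against 26.7 to 70.7 for Fancd2. The dimmer probe of Pcna differed by 0.04 and that of Fen1 by 0.26. The part of dividing cells in the Pcna and Fen1 signals was not tested either.

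Leukocyte transcripts had no settled direction. Of 12 leukocyte markers 10 were tested, 2 higher and 8 lower with 0 at an unadjusted p under 0.05 in limma. Their median difference was -0.08 and turned to 0.11 without vehicle replicate 2, and their summed signal was 10.8 to 18.5 in vehicle and 10.8 to 11.9 in TCEP rats. C1qb, the brightest of these markers, weighs most in that sum, and its groups overlapped with a difference of -0.36. The mean deviation of the leukocyte markers was highest on vehicle array 2, at 0.82. Markers listed for the distal convoluted tubule, collecting duct and podocytes had lower means in TCEP rats, though Aqp2 differed by only -0.09 and Podxl by -0.01. The median difference was -0.42 for 3 distal convoluted tubule markers (3 of 3 lower, 2 at an unadjusted p under 0.05), -0.31 for 4 collecting duct markers (4 of 4 lower, 3 at that p) and -0.27 for 4 podocyte markers (4 of 4 lower, 0 at that p). Over all tested genes 8.33% had such a p in limma, and 4.12% were lower with it. The summed signals of these marker lists, in the same units, were 18.4 to 31.3 in vehicle and 17.0 to 19.7 in TCEP rats for the distal convoluted tubule. They were 111 to 169 and 116 to 122 for the collecting duct, and 23.9 to 30.5 and 22.8 to 31.2 for podocytes. The brightest markers, Slc12a3, Aqp2 and Podxl, weigh most in these sums. The median was -0.14 over 2 markers of the thick ascending limb and 0.01 over 8 of the proximal tubule, of which 4 were higher and 4 lower. None of these marker genes passed the adjusted threshold. The part of leukocytes and of these cell types in the repair gene differences was not tested.

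**Figure D3:**
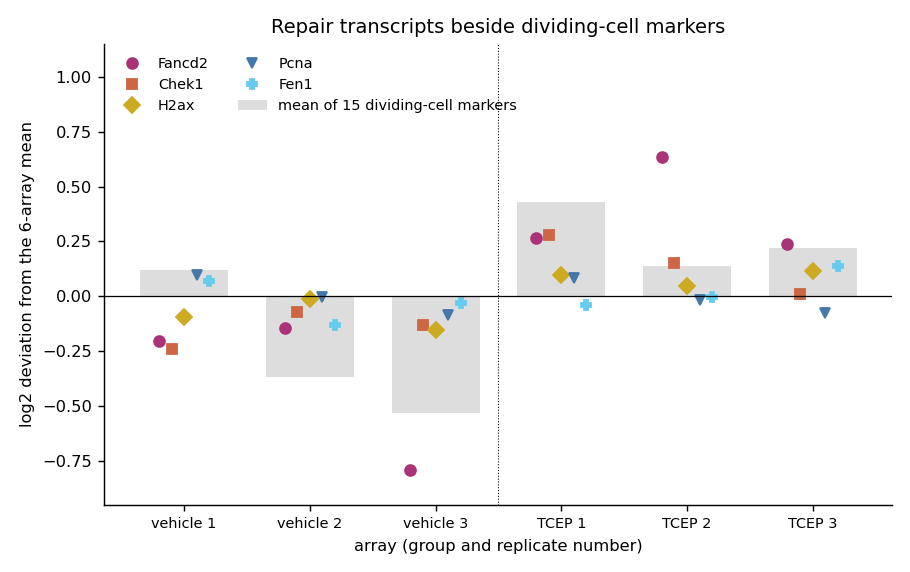
Deviation of each array from the mean of the 6 arrays (log2) for Fancd2, Chek1 and H2ax and for Pcna and Fen1 (points), beside the mean deviation of 15 dividing-cell markers (grey bars). Fancd2, Chek1 and H2ax lie below 0 on the vehicle arrays and above 0 on the TCEP arrays, the marker mean is above 0 on vehicle array 1 as well, and Pcna and Fen1 stay near 0. Fancd2, Chek1 and H2ax are among the members whose groups did not overlap, so a split by group is built into their choice.

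A wider list of 91 further repair genes also lay close to the vehicle level. Of these 68 were tested, 36 higher and 32 lower with a median of 0.02. In limma 0 passed the adjusted threshold, 8 (11.8%) had an unadjusted p under 0.05 (7 higher and 1 lower), against 8.33% of all tested genes, and 13 (19.1%) had groups that did not overlap, against 15.6%.

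Poll, a gap-filling polymerase of end joining, was at 1.77, 1.78 and 1.80 in vehicle and 1.98, 2.08 and 2.14 in TCEP rats. The Poll groups lay well apart, with a difference of 0.28 (SE 0.07, limma unadjusted p = 0.0051, adjusted p = 0.535). Gtf2h3, a subunit of the helix-opening complex of nucleotide excision repair, differed by -0.18 (SE 0.06, limma unadjusted p = 0.0281, adjusted p = 0.559), but by -0.04 with normexp and -0.07 as the mean over its probes. Fan1, a crosslink nuclease, differed by -0.21 (limma unadjusted p = 0.0723, adjusted p = 0.639). Others of the further genes higher at an unadjusted p under 0.05, named after their values were seen, included Ube2t, which ubiquitinates Fancd2, at 0.90 (SE 0.30), Ube2a at 0.20, Hus1 at 0.16 and Atrip at 0.16. Eme1, a nuclease subunit, was well above background on 2 vehicle and 3 TCEP arrays and so entered through the TCEP group, where it was higher. Its levels were -5.37, -5.73 and -5.73 in vehicle and -5.05, -5.27 and -4.90 in TCEP rats. Of the 67 further genes well above background on all arrays, 7 had an unadjusted p under 0.05 and 12 had groups that did not overlap. In a limma fit of all genes so filtered, the shares were 8.26% and 15.5%.

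Probes of one gene did not always give the same sign. Of the 37 tested members 21 had several detected probes. With differences taken at 2 decimals, in 8 of them (Chek2, Ercc6, Ercc8, Lig1, Ogg1, Parp1, Parp2 and Pms2) some probe had the opposite sign to the brightest. Pcna and Apex1 are not counted, since their brightest probes round to 0.00. Unrounded these were -0.0047 and -0.0004, and the other probes were at 0.04 and 0.13. Mgmt, Alkbh3, Polb, Fancd2, Chek1 and H2ax had 1 named probe each, so their differences had no check by another probe. For these genes the mean over probes, the filters on dim probes and the series matrix values gave the same differences at 2 decimals. Their counts of settings are therefore not counts of separate checks. Rad23b had 2.

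**Figure D4:**
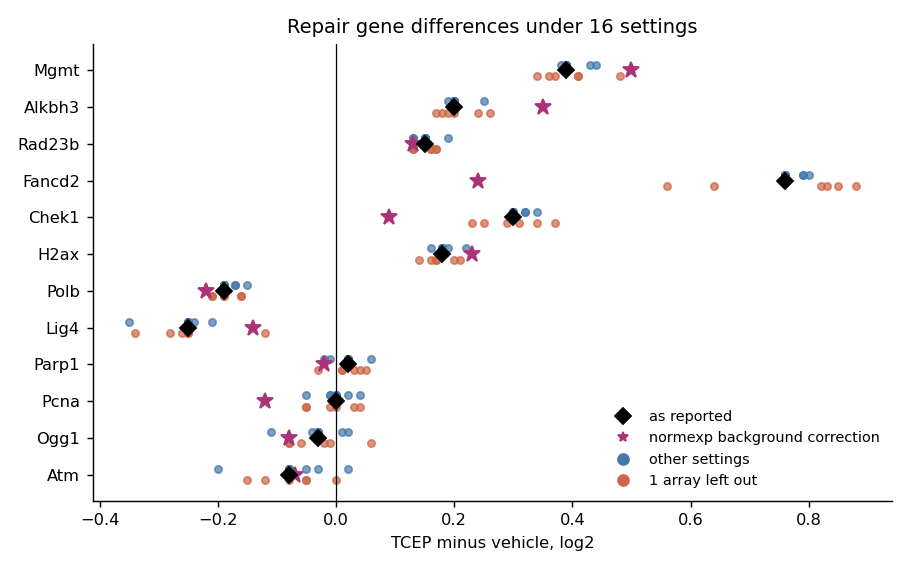
Difference (TCEP minus vehicle, log2) of 12 repair genes as reported (diamonds), with normexp background correction (stars), under other settings (blue) and with 1 array left out (orange). The values of Mgmt stay between 0.34 and 0.50, and those of Parp1, Pcna, Ogg1 and Atm lie on either side of 0. Those of Fancd2 and Chek1 drop to 0.24 and 0.09 with normexp. That setting adds an offset of 50 units, whose part in these drops was not tested.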

How the data were processed

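The authors' scanner files came, per the file headers, from Agilent Feature Extraction 10.7.1.1 (10.7 in the submitters' processing notes). The deposited processed signal is a linear intensity, with the background already subtracted and no scaling between arrays, and deposited flags of 0 or 1 (other values) mark spots as controls, outliers or detected. In the deposited series matrix this signal stands as a ratio to a constant per array, within 0.15% of that array's 75th percentile. Its column medians were 0.104 to 0.107, on a linear scale with no centring of genes seen.

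Of 61657 non-control probes, 12 outliers were left out and 27460 were named by accession, without versions, in a RefSeq table (GRCr8) used for names. Log2 processed signal minus the array's log2 75th percentile was analysed. A gene's brightest probe stood for it and was tested if every array of 1 or both groups had it well above background. TCEP was compared with vehicle in limma 3.58.1 (R 4.3.3; lmFit and eBayes, two-sided, 5.93 degrees of freedom) with Benjamini-Hochberg adjustment over 11804 genes. The script was tested on simulated data. With 3 arrays a group, the number of arrays limits the precision.

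The members and lists were chosen with earlier results of these data known. Members were named by rule: the 3 with the smallest p per pathway, 11 fixed readouts and any detected in 1 group, and of the further repair genes the 2 with the smallest p in each direction, of which 1 is not reported here. Other members are given by their differences. There were 15 alternatives: quantile or no scaling, normexp with offset 50 on median spot signals (mean signals are not used here), no or a stricter filter on dim probes, the mean over probes, the series matrix values, a replicate block, array weights, and leaving out each array. Promoter sequences are RefSeq's. Tables were made with pandas 2.3.3 and numpy 2.4.6 under Python 3.11.15, and figures with matplotlib 3.10.9.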

Additional observations from a re-analysis of the deposited data

How the results depend on the processing

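With each of the 15 alternatives 0 members and 0 genes passed the adjusted threshold in limma, while 5.88% to 13.4% of genes and 8.11% to 24.3% of members had an unadjusted p under 0.05. The 7 members at an unadjusted p under 0.05 became 3 to 6 when 1 array was left out, the 9 members without overlap 9 to 14 (24.3% to 37.8%, against 23.1% to 28.0% of all genes in those settings), and the median difference of 0.017 ranged from -0.008 to 0.043. Without scaling between arrays this median was 0.059, where the median of all genes was 0.05 against 0.008. Of 28 named differences 22 kept their sign throughout and 6 turned, in 19 of 420 values. Without scaling Pms2 was at 0.01, Xrcc5 at 0.01, Ogg1 at 0.01 and Pcna at 0.04. As the mean over probes Ogg1 was at 0.02, Pcna at 0.02 and Parp1 at -0.02. With normexp Xrcc5 was at 0.12 and Parp1 at -0.02, with quantile normalization Parp1 was at -0.01, and with array weights Atm was at 0.02. Leaving out 1 array gave -0.07 to 0.01 for Pms2 (0.01 without TCEP replicate 2), -0.08 to 0.06 for Xrcc5 (0.06 without TCEP replicate 1), -0.08 to 0.06 for Ogg1 (0.06 without TCEP replicate 2), -0.03 to 0.05 for Parp1 (-0.03 without TCEP replicate 3), -0.05 to 0.04 for Pcna (0.04 without vehicle replicate 1, 0.00 and 0.03 without TCEP replicates 2 and 3) and -0.15 to 0.00 for Atm (0.00 without TCEP replicate 1). The cause was not tested. Low signal limits Fancd2 and Chek1, and slide and scan are not separable from group.

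With the replicate number as a block, 3 members (Chek1, Fancd2 and Mgmt) had an unadjusted p under 0.05 (8.11%, against 7.2% of all genes). No sign was seen that the numbers pair the rats. Deviations of same-numbered arrays from their group means correlated at -0.146, -0.10 and 0.229 across genes for numbers 1 to 3. Arrays of unlike numbers correlated at -0.329 to 0.369. With 3 arrays a group such values cannot exclude a pairing.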
